A study of Mus musculus with 8 samples.

Results

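The mitotic entry kinases described here are 10 protein kinase genes, Mastl, Wee1, Plk1, Aurka, Aurkb, Ttk, Plk4, Nek2, Melk and Pbk, found by exact gene symbol among the 18306 genes of the deposited count table. Each symbol matched a lone row, and all 10 were among the 11844 genes with enough counts to be tested. The study measured RNA in C3H10T1/2 cells, an established mesenchymal cell line from mouse embryo, by RNA sequencing. All 8 libraries came from cells grown in serum-free medium for 24 h and then kept for another 24 h with vehicle, 0.1% fatty acid-free bovine serum albumin (4 libraries, replicates 1 to 4), or with 5 µM sphingosine 1-phosphate (S1P), a signalling lipid with its own family of cell-surface receptors (4 libraries, replicates 5 to 8). The labels name no genetic change in either group and do not tell whether each library is its own culture; the p-values below reflect just the spread between libraries, which may be technical. No albumin content is given for the S1P libraries. All libraries are of this same cell line and stand for a serum-deprived culture, not a tissue.

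A cell enters mitosis when cyclin B-bound CDK1 is switched on faster than its inhibitors and opposing phosphatases can hold it back. Wee1 keeps CDK1 off by phosphorylating it, Aurka activates Plk1, and Plk1 helps turn on CDC25 phosphatases and remove Wee1. Mastl, known as Greatwall, holds down the PP2A-B55 phosphatase that would undo CDK1's work. Several members also act at other steps of division, and in cultured cells transcripts of most of these genes are known to be low in resting cells and to build up towards mitosis. The name of the group rests on the known entry roles of part of its members, and transcript counts say nothing of kinase activity.

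Library totals ran from 13750303 to 13761544 counts. Of the fixed markers of the labelled cell type, 7 of 7 were found, with summed counts of 150586 to 245056 in vehicle and 135911 to 184866 after S1P, and none passed the test (edgeR quasi-likelihood test). Pdgfra among them had a log2 fold change of -1.04 (edgeR adjusted p = 0.0853) and was called lower by DESeq2 and when vehicle replicate 1 was omitted. Markers of other cell types were low: 4 leukocyte markers summed to 7 to 26 counts in vehicle and 9 to 15 after S1P, 3 endothelial markers to 2 to 6 and 1 to 2, the adipocyte marker Adipoq to 0 to 4 and 0 to 1, and the epithelial marker Cdh1 to 15 to 39 and 20 to 30. The muscle marker Myog was at 0 after S1P and at 0 to 1 counts in vehicle. Of the fixed markers of these other types, 4 of 5 leukocyte and 3 of 3 endothelial markers were found. For the epithelial, adipocyte and muscle types, 1 of 3 markers each was found. Vehicle replicate 4 stood apart from the other vehicle libraries, and its deviation from them followed the GC content of transcripts (r = 0.75 across 11634 genes, which are not independent replicates). Values without that library stand beside many of the fold changes, calls and ratios it moves. Levels per kilobase are given with all libraries only.

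After S1P, 9 of the 10 kinases rose and none fell, against a background of 8.50% of all tested genes called, 5.60% higher and 2.90% lower (edgeR quasi-likelihood test, Benjamini-Hochberg adjusted p under 0.05). The remaining gene, Plk1, did not pass. Fitted fold changes ran from 2.25 for Wee1 to 3.72 for Mastl, and the median log2 fold change of the 10 was 1.52, against -0.04 over all tested genes. In all 10 genes the lowest S1P library lay above the highest vehicle library, which held for 11.9% of all tested genes. Without vehicle replicate 4, all 10 were called higher. Over the whole table, that fit called 1133 genes higher and 723 lower, against 663 and 344 with all libraries. In these bulk libraries a larger share of dividing cells and more RNA per cell cannot be told apart.

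**Figure D1:**
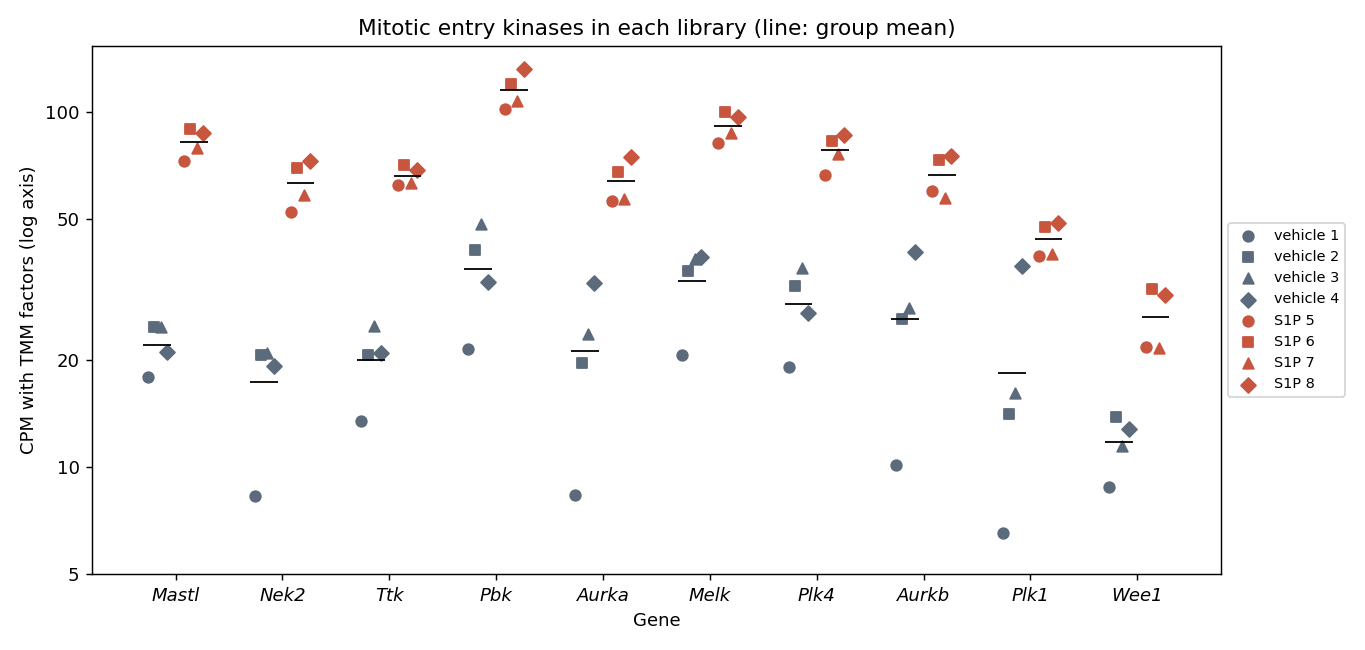
Each point is a library's level of a kinase gene in CPM (counts scaled to library size, log axis); blue-grey is vehicle, red is S1P, and the line is the mean of 4 libraries. Every S1P point lies above every vehicle point of the same gene, with the narrowest gap for Plk1, where vehicle replicate 4 at 37.0 CPM sits just under the lowest S1P library at 39.5.

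Promoter sequences from RefSeq (build GRCm38.p6, 250 bases before to 50 after the annotated start) were matched by symbol for 7 of the 10 genes: Mastl, Ttk, Plk1, Plk4, Aurka, Nek2 and Melk. Because members moved together, these windows were searched on both strands for the CHR letters TTTGAA (reverse TTCAAA) and the CCAAT letters (reverse ATTGG), elements known from many genes of late cell cycle, and for the E2F-type letters TTTCCCGC and TTTGGCGC with their reverses. The windows of Aurka, Plk1 and Ttk are shown because they hold both CHR and CCAAT letters, and that of Plk4 because it holds neither; capitals mark the CHR and CCAAT letters.
Aurka, chr2:172370521-172370820, minus strand: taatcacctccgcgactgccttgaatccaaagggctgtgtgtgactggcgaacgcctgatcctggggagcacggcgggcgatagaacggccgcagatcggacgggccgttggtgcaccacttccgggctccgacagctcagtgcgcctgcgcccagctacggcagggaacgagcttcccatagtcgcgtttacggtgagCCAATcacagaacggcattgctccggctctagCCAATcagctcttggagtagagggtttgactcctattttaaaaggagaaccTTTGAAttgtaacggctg
Plk1, chr7:122159185-122159484, plus strand: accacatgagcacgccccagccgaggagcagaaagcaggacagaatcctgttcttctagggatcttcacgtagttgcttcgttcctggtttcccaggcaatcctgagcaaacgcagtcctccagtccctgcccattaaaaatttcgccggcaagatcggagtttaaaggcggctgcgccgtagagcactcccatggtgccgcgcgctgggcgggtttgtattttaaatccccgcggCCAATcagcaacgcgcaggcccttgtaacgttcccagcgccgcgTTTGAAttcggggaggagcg
Ttk, chr9:83834439-83834738, plus strand: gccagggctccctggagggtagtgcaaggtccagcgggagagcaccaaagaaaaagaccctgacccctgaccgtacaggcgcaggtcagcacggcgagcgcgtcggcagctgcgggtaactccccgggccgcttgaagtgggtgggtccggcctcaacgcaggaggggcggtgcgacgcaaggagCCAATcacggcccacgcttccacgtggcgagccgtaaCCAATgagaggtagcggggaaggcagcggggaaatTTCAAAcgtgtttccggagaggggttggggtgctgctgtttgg
Plk4, chr3:40799701-40800000, plus strand: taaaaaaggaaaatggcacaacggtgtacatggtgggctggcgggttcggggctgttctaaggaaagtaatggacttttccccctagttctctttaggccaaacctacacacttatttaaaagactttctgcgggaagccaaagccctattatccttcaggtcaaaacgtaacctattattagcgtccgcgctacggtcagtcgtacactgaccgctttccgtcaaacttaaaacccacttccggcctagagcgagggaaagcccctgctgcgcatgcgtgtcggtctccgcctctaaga

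In the Aurka window, CCAAT began 51 and 19 bases before the start and TTTGAA at base 33 after it. The Plk1 window had CCAAT 14 bases before the start and TTTGAA at base 31. In Ttk, CCAAT began 65 and 28 bases before the start, with TTCAAA at base 8. CHR letters were in 3 of the 7 windows and in 17.9% of all 32851 promoter windows, CCAAT letters in 5 of 7 and in 37.4%, and both together in 3 of 7 and in 6.95%. Mastl held ATTGG 107 bases before its start, Nek2 held CCAAT 26 bases before and at base 8, and Melk and Plk4 held none of the searched letters. The E2F-type letters were in none of the 7 and in 1.07% and 0.514% of all windows. A match describes letters and is not a shown binding site. Fitted fold changes were 3.01 for Aurka, 3.30 for Ttk and 2.38 for Plk1 (not called), whose windows hold both CHR and CCAAT letters. They were 3.72 for Mastl and 3.65 for Nek2, with CCAAT letters alone, and 2.71 for Plk4 and 2.74 for Melk, with neither. A link between these letters and the fold change was not tested.

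Mastl and Wee1 stand on opposite sides of the entry switch, and both rose. Mastl (chromosome 2, 22970926 to 23011744 in mm9) was at 18.0, 24.8, 24.8 and 21.1 CPM in vehicle replicates 1 to 4 and at 73.1, 89.6, 79.2 and 87.6 CPM in S1P replicates 5 to 8. The lowest S1P library was 2.95 times the highest vehicle library, the widest gap among the 10 genes. Its mean went from 22.2 ± 3.29 to 82.4 ± 7.61 CPM (SD, n = 4 per group), a log2 fold change of 1.89 (SE 0.14, edgeR adjusted p = 0.00169). In mm9 the span of Mastl overlaps that of Yme1l1 (log2 fold change 0.21, not called), and how reads in that overlap were assigned is not given in the sources used here.

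Wee1, the CDK1-inhibiting kinase (chromosome 7, 117265664 to 117285826), was at 8.81, 13.9, 11.5 and 12.9 CPM in the vehicle libraries and at 21.8, 31.8, 21.7 and 30.6 CPM after S1P. It had the lowest mean CPM of the 10 genes in both groups and the smallest called fold change, and its groups did not overlap. The log2 fold change was 1.17 (SE 0.20, edgeR adjusted p = 0.0079), from 11.8 ± 2.20 to 26.5 ± 5.48 CPM (SD, n = 4 per group). S1P replicates 6 and 8 held the higher values and replicates 5 and 7 the lower, as was the case for all 10 genes.

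Plk1, the polo-like kinase that promotes CDK1 activation and centrosome maturation (chromosome 7, 129302751 to 129313589), was at 6.54, 14.2, 16.2 and 37.0 CPM in vehicle and at 39.5, 47.4, 39.9 and 48.8 CPM after S1P. Vehicle replicate 4 was over the other vehicle libraries and close to the S1P group. The log2 fold change was 1.25 (SE 0.42, edgeR adjusted p = 0.102), with means of 18.5 ± 13.02 and 43.9 ± 4.89 CPM (SD, n = 4 per group). Without vehicle replicate 4 it was 1.84 (SE 0.28, edgeR adjusted p = 0.00657), and leaving out any other library kept it uncalled. DESeq2, limma-voom, a surrogate variable and offsets for GC content each called it too, at log2 fold changes of 1.22, 1.51, 1.65 and 1.55 (adjusted p = 0.0296 in DESeq2, 0.0417 in limma-voom, and 0.00769 and 0.0116 in the last 2, which used edgeR). A processed pseudogene, Plk-ps1, is 93.5% identical to Plk1 over 1813 bases and was not analysed here, and the exons of Plk1 share 156 bases with Gm44985 on the other strand in GENCODE M21, so its counts are uncertain to that extent.

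Aurka, the Aurora A kinase of centrosomes and spindle poles (chromosome 2, 172181490 to 172196235), was at 8.38, 19.7, 23.8 and 33.1 CPM in vehicle and at 56.1, 67.7, 57.1 and 74.8 CPM after S1P. Its groups did not overlap, and vehicle replicate 1 was lowest and replicate 4 highest of the vehicle libraries. The log2 fold change was 1.59 (SE 0.34, edgeR adjusted p = 0.0203), with means of 21.2 ± 10.2 and 63.9 ± 8.96 CPM (SD, n = 4 per group). Without vehicle replicate 4 the log2 fold change was 1.89 (SE 0.32, edgeR adjusted p = 0.00934). The call was lost when vehicle replicate 2 or S1P replicate 6 or 8 was omitted (edgeR adjusted p reaching 0.0661). The span of Aurka overlaps that of Cstf1, whose log2 fold change was -0.02, but their exons share no bases in GENCODE M21.

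Aurkb, the Aurora B kinase of the chromosomal passenger complex (chromosome 11, 68858949 to 68865366), acts on kinetochores after entry. It was at 10.2, 26.1, 28.0 and 40.4 CPM in vehicle and at 60.1, 73.4, 57.3 and 75.4 CPM after S1P, with the same order of the vehicle libraries as Aurka. The log2 fold change was 1.35 (SE 0.34, edgeR adjusted p = 0.0391), with means of 26.2 ± 12.4 and 66.5 ± 9.18 CPM (SD, n = 4 per group). The Aurkb call was the least stable of the 9. Of the 8 leave-one-out fits it held in 2, which omitted vehicle replicate 1 or 4. It was lost in 6 (edgeR adjusted p reaching 0.113) and with no filter on low counts (adjusted p = 0.0516 in edgeR). Without vehicle replicate 4 the log2 fold change was 1.64 (SE 0.32, edgeR adjusted p = 0.0157).

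Ttk, the MPS1 kinase of the spindle assembly checkpoint (chromosome 9, 83728096 to 83766197), was at 13.5, 20.7, 25.1 and 20.9 CPM in vehicle and at 62.4, 70.9, 63.1 and 68.7 CPM after S1P. The S1P libraries were within a narrow band, the tightest of the 10 genes (coefficient of variation 6.34%). The log2 fold change was 1.72 (SE 0.18, edgeR adjusted p = 0.00247), with means of 20.1 ± 4.81 and 66.3 ± 4.20 CPM (SD, n = 4 per group).

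The centrosome kinases rose as well. Plk4, which starts centriole duplication (chromosome 3, 40603741 to 40621005), was at 19.2, 32.4, 36.4 and 27.2 CPM in vehicle and at 66.6, 83.0, 76.3 and 86.3 CPM after S1P. For Plk4, unlike Plk1, vehicle replicate 3 and not replicate 4 was the highest vehicle library. Its log2 fold change was 1.44 (SE 0.19, edgeR adjusted p = 0.00355), with means of 28.8 ± 7.44 and 78.1 ± 8.68 CPM (SD, n = 4 per group).

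Nek2, which loosens the link between centrosomes before they separate (chromosome 1, 193645123 to 193657129), was at 8.31, 20.8, 20.9 and 19.3 CPM in vehicle and at 52.3, 69.5, 58.6 and 72.8 CPM after S1P. Vehicle replicate 1 was far below the other 3 vehicle libraries, which lay close together. Means were 17.3 ± 6.06 and 63.3 ± 9.52 CPM (SD, n = 4 per group). The log2 fold change was 1.87 (SE 0.27, edgeR adjusted p = 0.0046), and 1.61 without vehicle replicate 1, the lowest of its leave-one-out values. Its exons share 298 of 4516 bases with the antisense gene Gm38037 in GENCODE M21.

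Melk and Pbk are kinases of dividing cells with less settled roles. Melk (chromosome 4, 44313548 to 44377747) was at 20.7, 35.7, 38.7 and 39.0 CPM in vehicle and at 81.8, 100.4, 87.4 and 97.2 CPM after S1P. Pbk, also called TOPK (chromosome 14, 66424474 to 66436859), was at 21.6, 41.0, 48.5 and 33.2 CPM in vehicle and at 102, 120.1, 107 and 132 CPM after S1P. Pbk held the highest CPM of the 10 genes in each S1P library, and the groups of both genes were apart by over 2 times from the highest vehicle to the lowest S1P library (ratios of 2.10 and 2.11). Melk went from 33.5 ± 8.69 to 91.7 ± 8.61 CPM and Pbk from 36.1 ± 11.5 to 115 ± 13.5 CPM (SD, n = 4 per group). The log2 fold changes were 1.45 for Melk (SE 0.20) and 1.68 for Pbk (SE 0.23), each with an edgeR adjusted p = 0.0036. A processed pseudogene, Gm12387, is 95.4% identical to Pbk over 955 bases and had 0 to 2 counts per library.

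**Figure D2:**
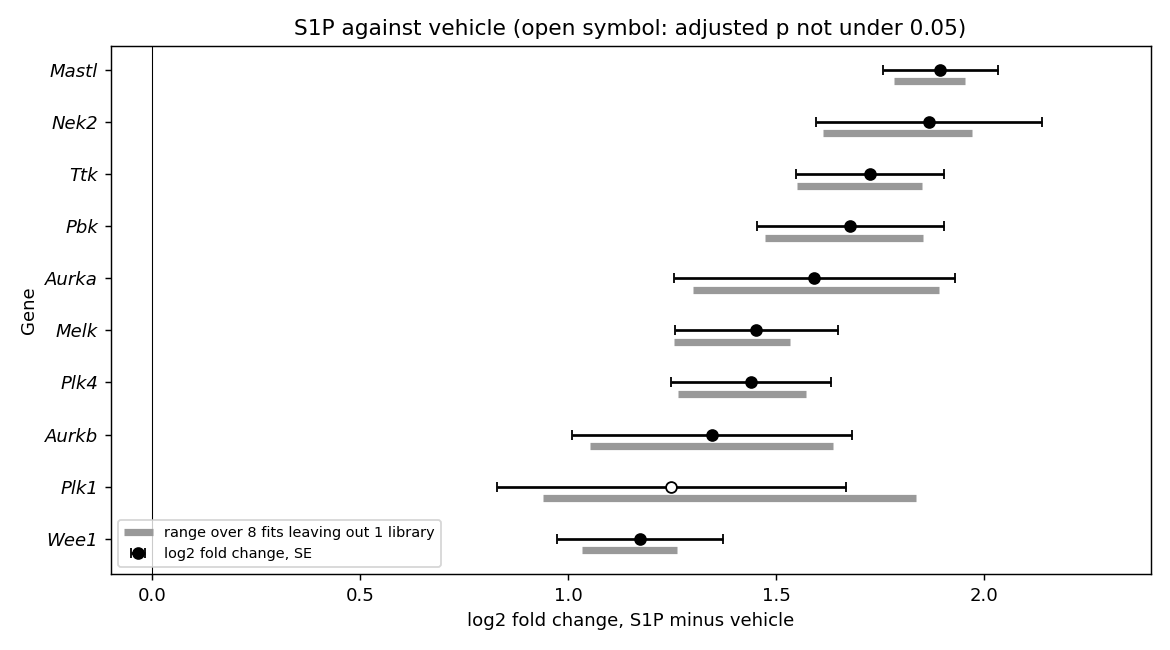
Log2 fold change of each kinase gene, S1P minus vehicle, with its standard error; the grey bar under it spans the 8 fits that each left out a library, and an open symbol marks an adjusted p not under 0.05. Values run from 1.17 for Wee1 to 1.89 for Mastl, and the widest bars belong to Plk1 (0.94 to 1.84), Aurka (1.30 to 1.89) and Aurkb (1.05 to 1.64).

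Levels of different genes were compared per kilobase of annotated exon (GENCODE M21 lengths, since the authors' annotation is not given). After S1P, Pbk was highest at 64.5 ± 7.54 CPM per kilobase, followed by Melk at 30.9 ± 2.90, Aurka at 25.3 ± 3.54, Aurkb at 22.6 ± 3.12 and Plk1 at 19.96 ± 2.22 (SD, n = 4). Mastl at 14.3 ± 1.32, Nek2 at 14.0 ± 2.11, Ttk at 13.5 ± 0.854, Plk4 at 11.4 ± 1.27 and Wee1 at 7.75 ± 1.60 CPM per kilobase made up the lower part. Neighbours in this order were apart by more than their SDs in 3 places: between Pbk and Melk, between Plk1 and Mastl, and between Plk4 and Wee1. In vehicle, Pbk was also highest, at 20.1 ± 6.41 CPM per kilobase, and Wee1 lowest, at 3.44 ± 0.643, but no neighbours in the order differed beyond their SDs.

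**Figure D3:**
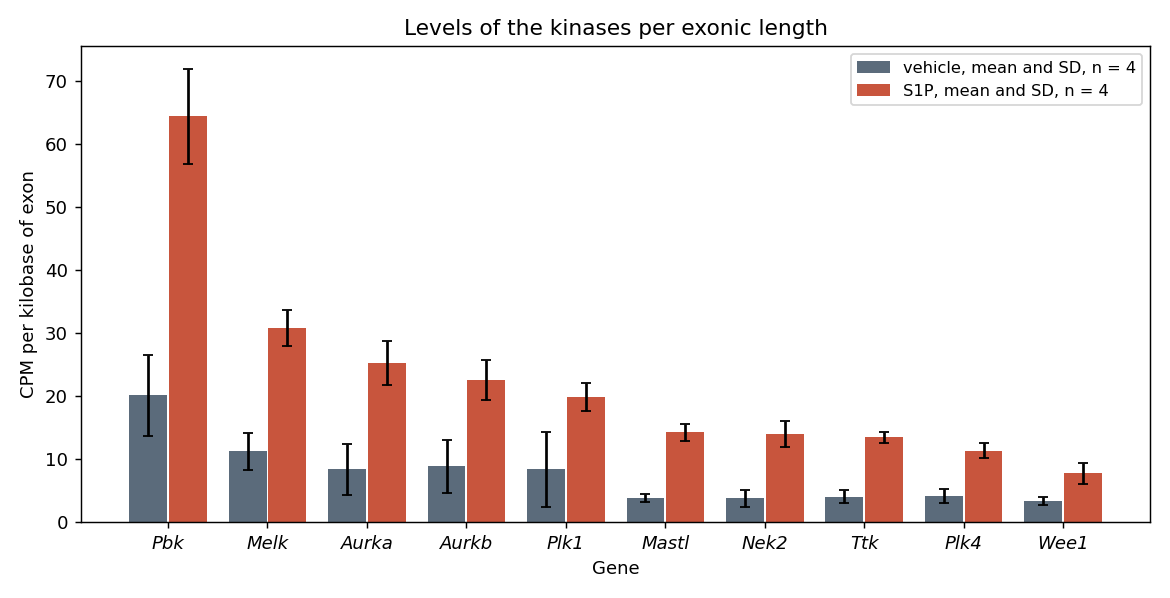
Bars are mean CPM per kilobase of exon in vehicle (blue-grey) and S1P (red), with the SD of 4 libraries, in the order of the S1P level. Pbk stands highest at 64.5 and Wee1 lowest at 7.75 after S1P.

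Like most tested genes, the kinases varied more among vehicle than among S1P libraries. The coefficient of variation of CPM ran from 14.9% to 70.5% in vehicle and from 6.34% to 20.7% after S1P, and was larger in vehicle for 9 of 10 genes, Wee1 being the exception. Over all tested genes it was larger in vehicle for 81.3%. Vehicle replicate 1 was the lowest vehicle library for all 10 kinases, which held for 23.6% of all tested genes. Vehicle replicate 4 was the highest for Plk1, Aurka, Aurkb and Melk and for 38.1% of all tested genes. Vehicle replicate 3 was the highest for Mastl, Ttk, Plk4, Nek2 and Pbk and for 23.5% of all tested genes. After S1P, replicates 6 and 8 were both above replicates 5 and 7 for all 10 kinases and for 16.4% of all tested genes. The summed level of the 10 genes was 135, 249, 274 and 284 CPM in vehicle replicates 1 to 4 and 616, 754, 648 and 774 CPM in S1P replicates 5 to 8.

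How far vehicle replicate 4 lay from the other vehicle libraries differed between the kinases and moved with their GC content. On the log2 CPM scale it was 1.69 higher than their mean for Plk1, whose longest transcript has 56.0% GC, 1.07 higher for Aurka (51.4%) and 1.05 higher for Aurkb (52.5%). For Mastl (40.8% GC), Plk4 (42.1%) and Pbk (43.5%) the difference was -0.08, -0.06 and -0.08. Across the 10 genes the correlation was r = 0.89, a description of points that share the same libraries. The 3 GC-richest genes are also those with the largest standard errors of the fold change. With GC offsets, all 10 kinases were called higher. Over the whole table, that fit called 1026 genes higher and 809 lower, against 663 and 344 without the offsets. The part of GC content in the values of vehicle replicate 4 was not tested.

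**Figure D4:**
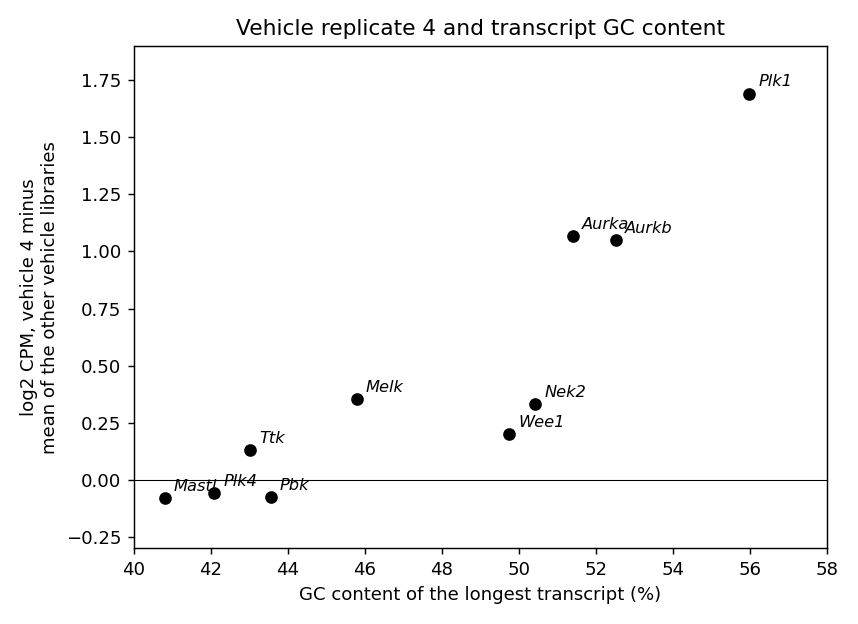
For each kinase gene, the log2 CPM of vehicle replicate 4 minus the mean of the other 3 vehicle libraries, against the GC content of its longest transcript. Plk1 lies at 56.0% GC and 1.69, and Mastl at 40.8% and -0.08.

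Ratios of gene pairs within a library do not depend on scaling, and 5 pairs were compared between groups by an exact two-sided permutation test, adjusted over the 5. The log2 ratio of Aurka to Aurkb was -0.28, -0.41, -0.24 and -0.29 in vehicle and -0.10, -0.12, -0.01 and -0.01 after S1P. Aurka was thus nearer to Aurkb in count in every S1P library than in any vehicle library, a difference of 0.25 (exact permutation p = 0.0286, the smallest that 4 against 4 libraries allow, adjusted p = 0.143). The ratio of Wee1 to Plk1 differed by -0.34 (exact permutation p = 0.457) and that of Plk4 to Plk1 by -0.04 (exact permutation p = 1.0). The Plk4 to Plk1 difference turned sign when vehicle replicate 1, 2 or 3 was omitted, to 0.19, 0.07 and 0.06. Vehicle replicate 4 set the spread of the Wee1 to Plk1 and Plk4 to Plk1 ratios, with a Wee1 to Plk1 ratio of -1.52 against -0.50 to 0.43 in the other vehicle libraries and a Plk4 to Plk1 ratio of -0.44 against 1.17 to 1.55. Without that library the differences were -0.71 for Wee1 to Plk1, -0.47 for Plk4 to Plk1 and 0.25 for Aurka to Aurkb. Each was at an adjusted exact permutation p = 0.0476, the smallest raw p for 4 against 3 libraries being 0.0286. The Aurka to Aurkb difference was thus 0.25 with or without that library. Its adjusted p fell because Wee1 to Plk1 and Plk4 to Plk1 then also reached the smallest raw p. A lone pair at the smallest raw p cannot go under an adjusted 0.143 over 5 pairs.

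The other pairs set Wee1 beside the remaining regulators of CDK1 phosphorylation. The log2 ratio of Cdc25b, a phosphatase that removes the inhibitory phosphate, to Wee1 was 1.10 ± 0.42 in vehicle and 1.05 ± 0.15 after S1P (SD, n = 4, exact permutation p = 0.857). Wee1 to Pkmyt1, the membrane-bound partner kinase of Wee1, was 2.18 ± 1.39 and 2.77 ± 0.12 (SD, n = 4, exact permutation p = 0.629). Pkmyt1 was counted 158 times in vehicle replicate 4, against 18 to 26 times in the rest of that group. Without that library both differences turned sign, to 0.14 for Cdc25b to Wee1 and -0.09 for Wee1 to Pkmyt1, and Cdc25b to Wee1 also did without S1P replicate 6, to 0.01.

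Of 10 tested genes of the CDK1 switch, 7 rose, none fell and 3 did not pass, with a median log2 fold change of 1.499. Among all tested genes 5.60% were called higher and 2.90% lower, the background for this and the following lists. The count was 9 when vehicle replicate 4 was omitted and 6 to 7 in the other leave-one-out fits. Calls over the whole table also grew without vehicle replicate 4, from 663 to 1133 higher and from 344 to 723 lower. List counts from that fit are to be read beside this. The cyclins Ccnb2, Ccnb1 and Ccna2 had log2 fold changes of 2.05, 1.901 and 1.67 and the phosphatase gene Cdc25c 2.01, from 7.89 ± 2.58 to 31.9 ± 4.01 CPM (SD, n = 4 each, edgeR adjusted p = 0.00312). Cdc25b rose with a log2 fold change of 1.08, a call that 2 of 8 leave-one-out fits kept, those omitting vehicle replicate 4 or S1P replicate 5 (edgeR adjusted p reaching 0.109). Pkmyt1 had a log2 fold change of -0.07 (SE 0.67) and did not pass, a value that rests on vehicle replicate 4: with that library omitted, its mean CPM after S1P was 2.5 times that of vehicle and it was called higher.

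Among partners and substrates of the kinases, 10 of 23 tested genes rose, none fell and 13 did not pass, with a median of 0.53, and 13 were called higher when vehicle replicate 4 was omitted. The largest changes were in the central spindle kinesin Kif20a (log2 fold change 1.89), the kinetochore scaffold Casc5 (1.80), the microtubule bundler Prc1 (1.63) and Tpx2, the activator of Aurora A (1.55). Chosen after their values were seen, the passenger complex genes Birc5 and Cdca8, which work with Aurkb, rose with log2 fold changes of 1.52 and 1.38, and Incenp, of the same complex, had 0.91 (edgeR adjusted p = 0.102). Incenp was called higher when vehicle replicate 4 was omitted (mean CPM 2.398 times that of vehicle, against a fitted 1.88-fold with all libraries), and by DESeq2, with a surrogate variable and with GC offsets. Of the Plk4 partners, named after their values were seen, Stil and Sass6 rose with 1.45 and 1.18, and Cep152 had 0.53 and did not pass (edgeR adjusted p = 0.25). Cep192 of the same list, also named after its values were seen, rose with 0.87 (edgeR adjusted p = 0.00514). The Mastl substrates Arpp19 and Ensa, also chosen after their values were seen, had log2 fold changes of 0.05 and 0.22 and did not pass.

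Of 27 tested kinases from the same families or other steps of the cell cycle, 9 rose, none fell and 18 did not pass, with a median log2 fold change of 0.10. The count was 10 when vehicle replicate 4 was omitted and 6 when S1P replicate 6 or 8 was. The checkpoint kinases Bub1 and Bub1b had log2 fold changes of 1.82 and 1.62, the cytokinesis kinase Cit 1.61 and the DNA damage kinase Chek2 1.40. Cit lost its call in 6 of 8 leave-one-out fits, keeping it when vehicle replicate 4 or S1P replicate 5 was omitted (edgeR adjusted p reaching 0.0899). Chosen after their values were seen, the remaining polo-like genes were Plk2, which rose with 0.86 but not without S1P replicate 6 or 8, and Plk3, at -0.06. Of the NEK family, also named after their values were seen, Nek7 rose with 0.57. That call was lost in 6 of 8 leave-one-out fits (kept when vehicle replicate 1 or 4 was omitted). Nek1, Nek3, Nek4, Nek6, Nek8 and Nek9 had log2 fold changes of -0.27 to 0.06 and did not pass.

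Of 22 tested regulators of G2/M transcription, 5 rose, none fell and 17 did not pass, with a median log2 fold change of 0.32. The repressors E2f7 and Rbl1 had 1.23 and 1.10, Lin9, of the MuvB complex, 1.14, and Foxm1, an activator of mitotic genes, 1.20. Foxm1 lost its call in 7 of 8 leave-one-out fits and kept it when vehicle replicate 4 was omitted (edgeR adjusted p reaching 0.114). Without vehicle replicate 4, 8 genes of this list were called higher, in a fit that called 1133 rather than 663 genes higher over the whole table.

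Of 23 tested genes of turnover and opposing phosphatases, 4 rose, none fell and 19 did not pass, with a median of 0.20. Ube2c and Cdc20, of the anaphase-promoting complex pathway, had log2 fold changes of 1.75 and 1.56, its inhibitor Fbxo5 1.61 and the PP2A catalytic gene Ppp2cb 0.40. The Fbxo5 call held in all 8 leave-one-out fits. The Ube2c call was lost in 3 of them (edgeR adjusted p reaching 0.0669), the Cdc20 call in 6 and with no filter (0.0992), and the Ppp2cb call in 7, with DESeq2 size factors, with no filter and with GC offsets (0.147). The count was 8 without vehicle replicate 4, where 1 gene was also called lower, 2 when vehicle replicate 3 or S1P replicate 5 or 7 was omitted, and 1 when vehicle replicate 2 or S1P replicate 6 or 8 was. General proliferation markers rose in 5 of 11 cases, with a median of 0.81, led by Top2a (1.61), Mki67 (1.52), Rrm2 (1.19) and Mcm6 (0.81). That count was 11 without vehicle replicate 4 and 2 without S1P replicate 6 or 8, where Mki67 and Mcm6 were among the calls lost. Over the whole table, 1133 genes were called higher without vehicle replicate 4, against 663 with all libraries. Without S1P replicate 6 it was 333 genes and without S1P replicate 8 it was 360.

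Of the 15 genes nearest to the kinases within 50 kb in mm9, 11 were tested, with a median log2 fold change of 0.16. Of these 11, 1 rose and 1 fell, against 5.60% higher and 2.90% lower among all tested genes. The riser was Esco2, a cohesin acetyltransferase gene 816 bases from Pbk, with a log2 fold change of 1.38 (SE 0.26, edgeR adjusted p = 0.0114). Scara5, a scavenger receptor gene on the other side of Pbk at 40611 bases, had -1.31 (adjusted p = 0.0104 in edgeR, Benjamini-Hochberg). Other close neighbours did not pass, among them Acbd5, 696 bases from Mastl (0.16), Mfsd8, 787 bases from Plk4 (-0.18), and 2010011I20Rik, 41 bases from Aurka (-0.08). Hspa4l, 3516 bases from Plk4 on its other side, had 0.85 (SE 0.25, edgeR adjusted p = 0.0712) and did not pass either.

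Profiles across the 8 libraries were compared by the root mean square distance of log2 CPM centred on each gene's mean. Nearest to the mean profile of the 10 kinases were Ckap2l, Birc5, Anln, Tacc3 and Kif4, at distances of 0.06 to 0.08 log2 units, with log2 fold changes of 1.52 to 1.67. Among the kinases, Melk lay closest to their mean profile (0.09) and Plk1 farthest (0.38). The closest pair of kinases was Ttk and Pbk (0.12) and the farthest Mastl and Plk1 (0.61), with a median of 0.30 over 45 pairs. Outside the set, the nearest gene was Cdk1 for Melk, Ccnb1 for Nek2, Mad2l1 for Plk4, Ect2 for Pbk, Gas2l3 for Ttk and Ska1 for Mastl. For Aurka it was Ube2c, for Aurkb Kif22 and for Plk1 Espl1, the separase gene, which also had its highest vehicle value in replicate 4 (29.8 CPM against 6.18 to 13.84). Wee1 lay nearest to Cars, a cysteinyl-tRNA synthetase gene with no known part in mitosis (log2 fold change 1.10, distance 0.11).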

How the data were processed

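The authors deposited whole-number read counts per Ensembl gene with symbols and mm9 coordinates. STAR 2.5.3a and mm9 are named in the submitters' processing notes; the counting tool, annotation and strand setting are not stated in those notes, the labels or the headers. The deposited counts sum to nearly equal totals per library, so the original sequencing depth cannot be read from them.

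Columns were matched to samples by title. Genes were kept with filterByExpr (minimum count 10) in edgeR 4.0.16 (R 4.3.3), CPM used TMM factors, and S1P was tested against vehicle over all 8 libraries with the robust quasi-likelihood test, Benjamini-Hochberg adjusted over 11844 genes at 0.05. Standard errors came from the F statistic. Ratios used counts plus 0.5. The fit was tested on simulated counts. DESeq2 1.42.0, limma-voom (limma 3.58.1), sva 3.50.0, glmTreat, other filters and factors, leaving out libraries, and GC offsets (added after seeing the data) were alternatives.

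The members, lists and rules were chosen with earlier results of these data known. Named genes are the members, up to 4 called genes of each list with the largest absolute log2 change (where fewer than 2 were called, the 2 of highest mean CPM), the pair genes, neighbours and nearest profiles; others are marked.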

Additional observations from a re-analysis of the deposited data

Results flagged for a closer look

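Nek2 in vehicle replicate 1 was at 8.31 CPM, far below the other vehicle libraries at 19.3 to 20.9 CPM, a gap large enough for Dixon's test at the 95% level. The test was run on 20 groups of 4 libraries (10 kinases, vehicle and S1P), and chance alone flags about 1 in 20. The same library was the lowest of the vehicle group for all 10 kinases.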

How the results depend on the processing

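No kinase changed direction under any of 18 alternative settings. Of 180 recomputed fold changes of the kinases, 161 kept their side of the threshold, 13 lost the call (Aurka 4, Aurkb 8, Wee1 1) and 6 gained it (all Plk1). Kinases called higher numbered 7 to 10 over the fits leaving out a library, 6 against a 1.5-fold change (glmTreat), 8 without a filter, and 10 with DESeq2, limma-voom, a surrogate variable, GC offsets or without both vehicle replicate 4 and S1P replicate 5; none was called lower in any of them. At an unadjusted p under 0.05 all 10 were higher in edgeR, as were 13.2% of all tested genes. Genes called higher and lower over the whole table, 663 and 344, ran from 333 to 1133 and from 101 to 723 over the fits leaving out a library; they were 1471 and 1015 with a surrogate variable, 150 and 35 against a 1.5-fold change, 1178 and 934 without vehicle replicate 4 and S1P replicate 5, and 1026 and 809 with GC offsets, and DESeq2 called 967 and 804. The cause of these shifts was not tested. Over the fits leaving out a library, the log2 ratio difference ranged from -0.711 to -0.0609 for Wee1 to Plk1, -0.19 to 0.14 for Cdc25b to Wee1, -0.0868 to 0.972 for Wee1 to Pkmyt1, 0.21 to 0.27 for Aurka to Aurkb and -0.47 to 0.19 for Plk4 to Plk1. No paired analysis was possible because the groups share no replicate numbers. Counts per kinase and library ran from 92 to 1841, so counting error is largest for Plk1 in vehicle replicate 1.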
